A study of Mus musculus with 3 samples.

Results

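Mouse embryonic fibroblasts that had received 8 transcription factors were compared with cultured primary thyroid follicular cells across all named genes, gene family by gene family. The comparison rests on 2 of the 3 arrays of the series, chosen by their titles, with 1 array a side. Of 18951 genes with a probe, 16160 were compared: they were well above background, by the scanner's own flag, on at least 1 of the 2 arrays. The 8-factor culture was made from fibroblasts of E13.5 embryos of ICR mice, infected on 2 occasions with retroviruses for the 4 thyroid regulators (Hhex, Foxe1, Nkx2.1 and Pax8) and the 4 reprogramming factors (c-Myc, Klf4, Sox2 and Oct3/4). It spent 1 week in low-glucose DMEM with 10% FBS, then 2 weeks in DMEM/F12 with 10% FBS, 0.1 mM non-essential amino acids, 1 µg/mL potassium iodide, 1 U/mL thyroid stimulating hormone (TSH) and the N2 and B27 supplements, and was collected at 21 days. The primary cells came from thyroids of adult ICR mice and grew for 1 week in the latter medium. The third array, a culture given 7 factors without Hhex and otherwise handled alike, is used only for values set beside these. Uninfected fibroblasts were not analysed here, the cultures were whole dishes rather than sorted cells, and the labels name no separate cultures or animals. Each difference is therefore that of 1 pair of arrays and has no replicate check.

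A thyroid follicle is a closed sphere of polarized epithelium around a store of thyroglobulin. Its cells pump iodide in at the base, couple it to thyroglobulin at the apex under TSH control, and then take the protein back up and digest it in lysosomes to release thyroid hormone. The work therefore rests on tight junctions, on directional ion transport, on peroxide handling and on proteolysis. Embryonic fibroblasts are mesenchymal cells that divide quickly in culture, make interstitial matrix and keep the Hox code of their place in the embryo.

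Expression is given as the log2 of the processed one-colour signal minus the array's 75th percentile, so that a level of 0 is a probe at that percentile, and levels of different genes are not compared. Higher or lower means at least 2-fold. Where a gene was not well above background on 1 array, its fold is a bound ("at least"), taken against the higher of that array's lowest signal well above background and the probe's own signal. Scanner error on a measured log2 difference had a median of 0.204 over all genes and covers neither labelling nor culture. The arrays differed before scaling: the 75th percentile was 2535 in the 8-factor culture and 504 in the primary cells, while the spiked-in control RNA was at 0.48 of its primary level. The share of probes well above background was 77.8% against 63.5%. After scaling, the lowest level well above background was -7.91 in the 8-factor culture and -5.15 in the primary cells. Low levels could therefore be measured further down in the 8-factor culture. The primary array was on a slide and a scan of its own, so slide and culture cannot be told apart.

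The marker lists differed widely between the 2 cultures. All 12 thyroid markers with a probe were well above background in the primary cells, with a summed signal of 544 times the 75th percentile. In the 8-factor culture 9 of them were, summing to 2.73, and Iyd and Pax8 were among those that were not. Epithelial markers summed to 131 and 823, and fibroblast markers to 348 and 160.1, in the 8-factor culture and the primary cells respectively. Leukocyte markers were above background for 14 of 16 in each culture, but summed to 103 in the primary cells against 0.568. C cell and parathyroid markers summed to 365 against 6.68, and the muscle, endothelial and adipocyte lists to less than 10 on every array. In whole cultures, fewer cells of a type and less RNA per cell cannot be told apart. Of the delivered genes themselves, Sox2 and Myc were higher, by 8.10-fold and 4.78-fold, Nkx2-1, Pax8, Hhex and Foxe1 were lower, and Klf4 lay at -0.67 on the log2 scale. Oct3/4, which RefSeq names Pou5f1, was not well above background on either array and was not compared. Whether these probes read a transgene's transcript was not tested, and other probes disagreed for Myc (log2 differences -1.76 to 2.48) and Hhex (0.63).

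Over all genes compared, 2874 were higher in the 8-factor culture (17.8%) and 4447 lower (27.5%). At 10-fold, 310 were higher (1.92%) and 986 lower (6.1%). Of the genes compared, 14069 were measured on both arrays, and among them 2473 were higher and 4138 lower, while 607 gave a bound to the higher side, 309 to the lower side and 1175 no direction. A gene that only 1 array detected could differ only towards that array. The median difference was 0.00, bounds counted at their bound and genes without a direction at 0. Without scaling between the arrays the split was 11715 higher against 978 lower, since that moves the median of measured genes by 2.33, and family medians are therefore read against the median of all genes. Dim genes leaned one way: the median difference was -1.40 in the second dimmest decile of genes by mean level and -0.73 in the third, where 57.4% and 45.9% were lower, but between -0.14 and 0.21 in the brighter 7 deciles. Families of dim genes, such as the cytochrome P450 enzymes (median -1.13), are read against those deciles. The lowest measurable level differed between the arrays, as given above, and its part in this lean was not tested. Of 1884 called genes with another measured probe, the median of the other probes pointed the same way for 1621 (86.0%).

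**Figure D1:**
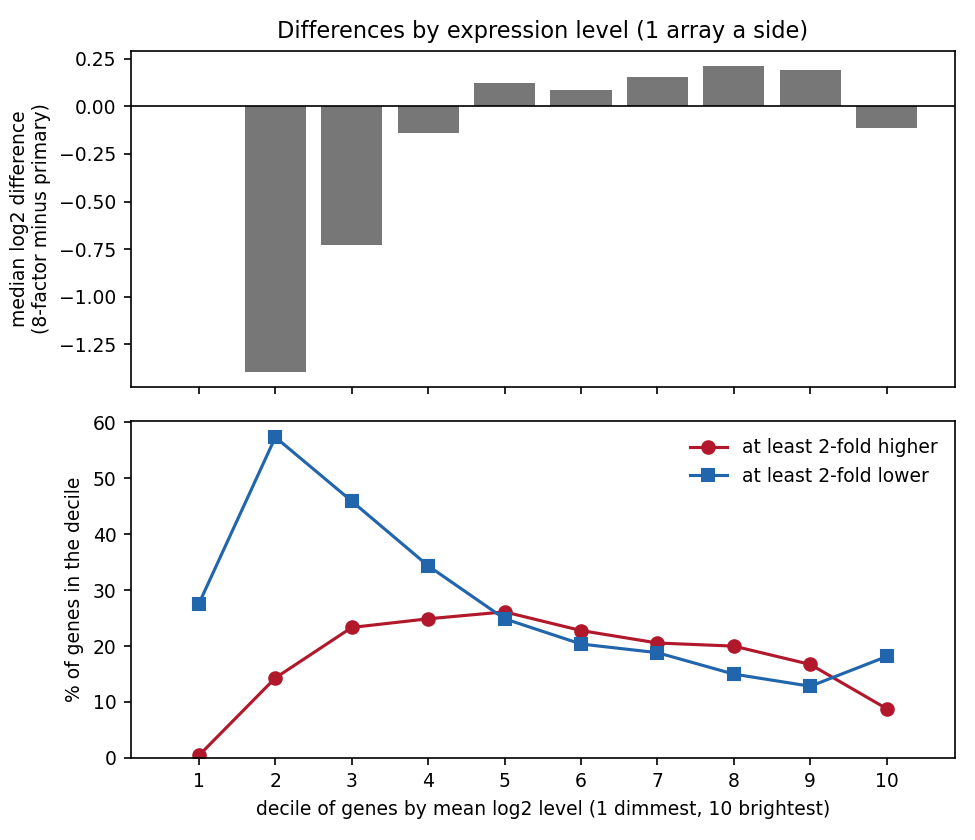
Genes compared were split into deciles by their mean log2 level on both arrays, from dim (left) to bright (right). The upper panel gives the median log2 difference, 8-factor culture minus primary cells, and the lower panel the percentage at least 2-fold higher or lower, with the lower share peaking at 57.4% in the second decile.

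The genes of cell division were higher in the 8-factor culture as a block. Of 61 kinetochore, spindle and cytokinesis genes, 38 were higher and 2 lower, with a median log2 difference of 1.38 (1.07 for the 7-factor culture against the same primary array). Kif20a, a mitotic kinesin needed for cytokinesis, had a log2 level of 4.01 in the 8-factor culture, 3.60 in the 7-factor culture and 1.49 in the primary cells, 5.73-fold higher. Kif18a, which shortens kinetochore microtubules, stood at -0.30 in the 8-factor culture, -0.81 in the 7-factor culture and -2.56 in the primary cells, 4.80-fold higher. Both induced cultures lay above the primary cells for both kinesins. Ckap2, a spindle protein, was 5.01-fold higher, Ect2, which triggers furrow formation, 3.94-fold higher, and Cenpp, of the inner kinetochore, 5.27-fold higher. The 2 lower members were Cit, the citron kinase of the midbody (2.64-fold), and Cenpb, which binds centromeric satellite (2.61-fold). Kif11, the kinesin that pushes spindle poles apart, was 8.99-fold higher by its brightest probe, but another probe gave -1.69 on the log2 scale, and Bub1 was split in the same way (2.17 and -1.70).

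S-phase genes differed by less. Among DNA replication genes 18 of 51 were higher and 1 lower (median log2 difference 0.66), with the helicase-nuclease Dna2 (5.94-fold, another probe at -0.45 on the log2 scale), the leading strand polymerase subunit Pole (4.06-fold) and the primase partner Pola1 (3.79-fold). The exception was the primase subunit Prim2, 34.7-fold lower. Homologous recombination and Fanconi genes gave 18 higher and 3 lower of 35 (median log2 difference 1.02), with the checkpoint kinases Chek1 (3.72-fold) and Atm (6.74-fold) and the repair gene Brca1 (5.12-fold) higher. Of the cohesin and condensin genes 11 of 26 were higher and 1 lower. Rec8, the cohesin of meiosis, was the lower one (4.93-fold), whereas its partner Stag3 was at least 8.79-fold higher.

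Cyclins and cyclin-dependent kinase inhibitors were both among the higher genes. Of these 9 of 22 were higher and 1 lower, and the higher ones included the S-phase cyclins Ccne2 (7.17-fold) and Ccna2 (3.62-fold) but also 3 brakes of the cycle. Cdkn2a, the Ink4a/Arf locus, had a level of 0.33 in the 8-factor culture, 0.23 in the 7-factor culture and -2.95 in the primary cells, 9.69-fold higher. Cdkn1c was 11.6-fold higher and Cdkn1a, a p53 target, 2.64-fold higher. The p53 targets Bax, Bbc3 and Fas, which act in cell death, were also higher, by 3.26-fold, 2.68-fold and 5.77-fold. Targets of p53 were not scored as a list, so those named here do not speak for the rest. Among caspases, gasdermins and the Bcl2 family 6 of 41 were higher and 13 lower (median log2 difference -0.19). Ccnd3, a D-type cyclin, was 2.21-fold lower.

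The promoters of cell division genes often carry the cell cycle homology region (CHR), through which the DREAM and MuvB complexes act late in the cycle. Its core letters TTTGAA, read on either strand, were found in 29 of 53 kinetochore-list promoters with a sequence (54.7%), in 17 of 33 of the higher members (51.5%), in 8 of 42 DNA replication promoters (19%) and in 2 of 27 of the recombination list (7.41%), against 4893 of 27025 promoters of all genes (18.1%). CCAAT, often found with it, was in 36 of 53 (67.9%) against 37.9% of all. These windows run from 250 bases before to 50 after the RefSeq start (GRCm38.p6). Those of 3 of the higher genes are shown 5' to 3' on the gene's strand, with the CHR letters in capitals, since the motif sits at a different place in each (for Kif11 the probes disagree, as above): Kif11 at chr19:37376132-37376431 on the + strand, Ckap2 at chr8:22185770-22186069 on the - strand and Ect2 at chr3:27153829-27154128 on the - strand. A match describes letters and is not evidence of binding.
Kif11: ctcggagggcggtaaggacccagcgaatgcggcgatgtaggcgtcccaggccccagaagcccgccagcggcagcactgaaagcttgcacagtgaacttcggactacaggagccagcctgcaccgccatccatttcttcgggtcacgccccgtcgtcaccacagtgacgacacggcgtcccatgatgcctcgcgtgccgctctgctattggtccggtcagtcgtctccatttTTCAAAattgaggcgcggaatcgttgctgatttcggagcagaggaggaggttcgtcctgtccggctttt
Ckap2: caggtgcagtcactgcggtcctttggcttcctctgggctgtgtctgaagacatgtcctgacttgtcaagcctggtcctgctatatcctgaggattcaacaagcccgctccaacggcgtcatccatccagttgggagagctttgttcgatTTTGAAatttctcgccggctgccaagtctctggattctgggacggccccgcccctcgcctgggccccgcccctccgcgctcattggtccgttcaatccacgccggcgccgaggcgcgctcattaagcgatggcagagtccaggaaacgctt
Ect2: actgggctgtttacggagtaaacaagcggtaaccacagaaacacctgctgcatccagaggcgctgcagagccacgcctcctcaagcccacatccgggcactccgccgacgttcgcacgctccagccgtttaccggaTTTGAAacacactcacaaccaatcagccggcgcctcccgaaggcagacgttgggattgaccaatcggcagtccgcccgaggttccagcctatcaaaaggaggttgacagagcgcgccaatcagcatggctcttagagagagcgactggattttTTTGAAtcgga

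Other nuclear machinery leaned the same way by smaller amounts. Among nucleoporins, which build the nuclear pore, 9 of 26 were higher and 0 lower (median log2 difference 0.73), with Nup43 (4.01-fold) and Nup160 (3.60-fold) at the top. Second probes pointed the same way for 2 of 4 called nucleoporins. Of 83 spliceosomal proteins, 18 were higher, including the SR protein Srsf6 (5.04-fold), and 2 lower (median log2 difference 0.51). The share higher was 21.7%, against 16.7% of all genes in their decile. RNA polymerase subunits gave 7 higher and 0 lower of 25. In the large Zfp group of zinc finger proteins, many of them DNA-binding repressors, 79 of 324 were higher and 18 lower (median log2 difference 0.31). Their share higher, 24.4%, was not above that of all genes in their decile (26.1%). Their share lower, 5.56%, was below it (24.9%). The histone list held 15 higher and 6 lower of 36, and the higher ones included the linker histone H1f5 (4.45-fold), the core histone H2ac15 (3.87-fold) and H2ax (3.59-fold), the variant phosphorylated at DNA breaks.

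Genes of nucleotide supply were higher as well. For purine and pyrimidine synthesis 15 of 34 were higher and 6 lower (median log2 difference 0.80), and Cad, which performs the first steps of pyrimidine synthesis, had a level of 4.54 in the 8-factor culture, 4.86 in the 7-factor culture and 1.25 in the primary cells, 9.79-fold higher, with other probes at 0.20 to 3.15. The purine enzymes Pfas (4.82-fold) and Ppat (3.63-fold) were higher as well. Xdh, which breaks purines down, was 8.38-fold lower, and the deaminase Ada 5.56-fold lower. In folate and serine metabolism 12 of 29 were higher and 4 lower, with the glycine cleavage enzyme Gldc at least 7.34-fold higher and the folate receptors Folr1 and Folr2 34.3-fold and 14.7-fold lower. Slc19a1 of this list cannot be placed: its brightest probe gave 2.53, and its other measured probe -1.54.

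**Figure D2:**
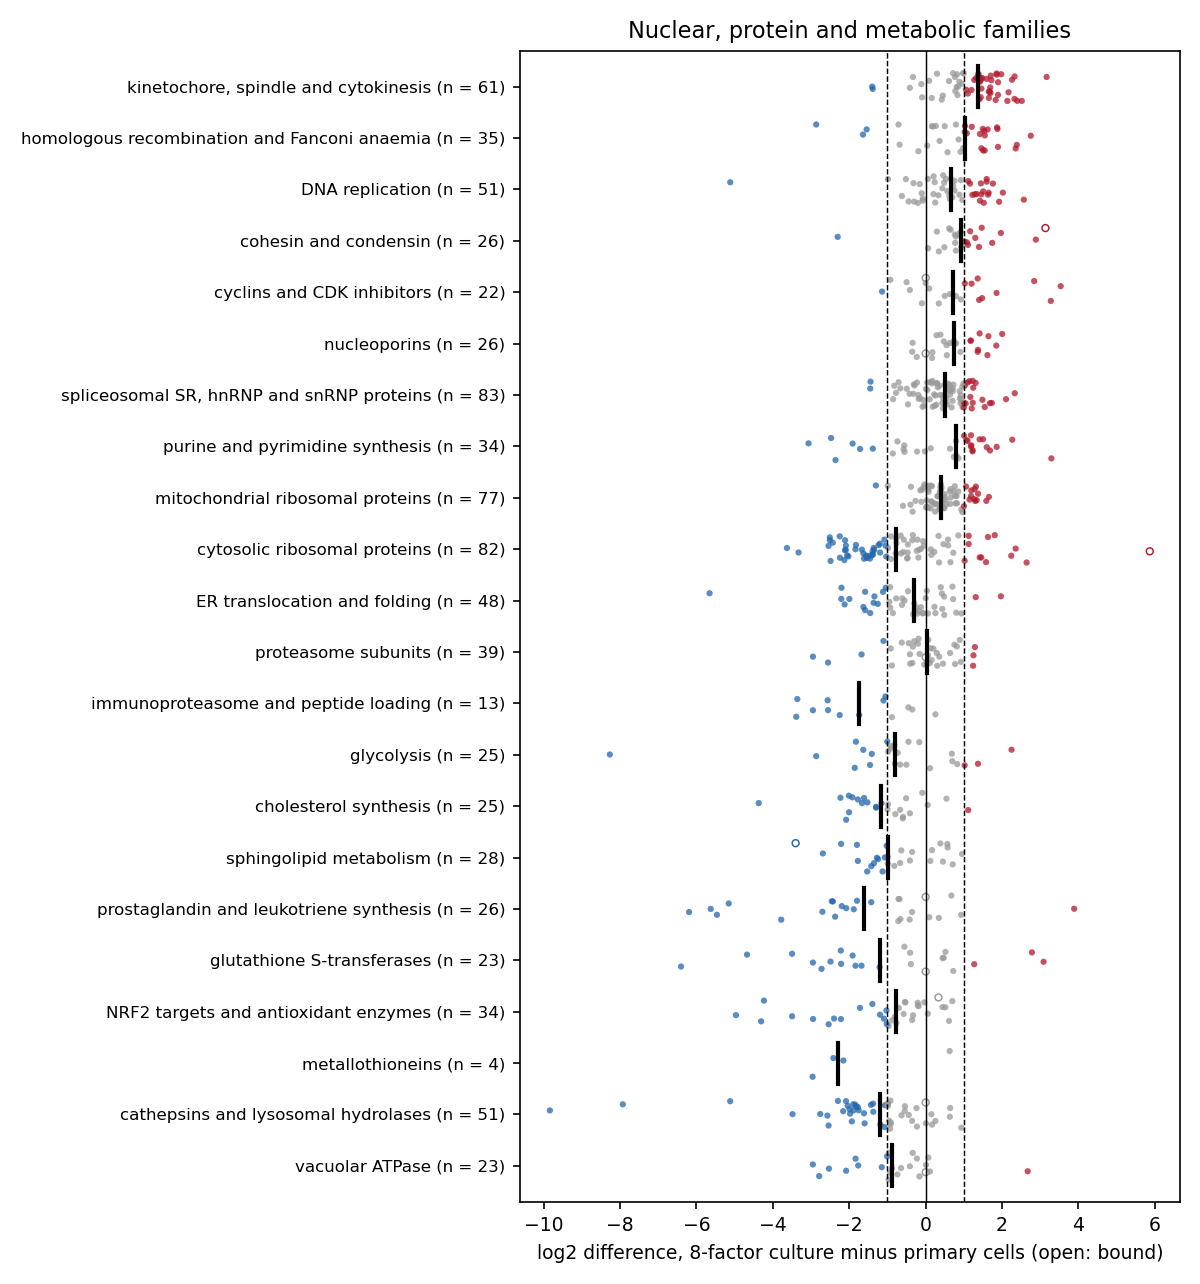
Each point is the log2 difference, 8-factor culture minus primary cells, of 1 gene of the nuclear, protein and metabolic families named in the text, open symbols are bounds, bars mark the family median, and dashed lines mark 2-fold. Among the lists plotted the kinetochore list has the highest median, 1.38, and the metallothioneins the lowest, -2.28.

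The ribosomes of the cytosol and of mitochondria differed. Of 77 mitochondrial ribosomal proteins, 13 were higher and 1 lower (median log2 difference 0.40), with Mrps31 (3.15-fold) and Mrpl50 (3.01-fold) among them. Of 82 cytosolic ribosomal proteins, 12 were higher and 36 lower (median log2 difference -0.77), a sign that turned positive under quantile normalization. The cytosolic list was mixed within itself. Rplp0, of the stalk, was 10.0-fold lower (slightly higher under quantile normalization) and Rps27a 12.4-fold lower, whereas Rpl27a was 6.25-fold higher and Rpl39l, a testis-type paralog, at least 58.4-fold higher. Second probes pointed the same way for 8 of 14 called members, and Rpl21 gave -2.51 by one probe and 2.16 by another. Translation factors gave 11 higher and 2 lower of 60, a share higher (18.3%) near that of all genes in their decile (16.7%). Eef2k, the kinase that slows elongation, was 7.16-fold higher.

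Genes of folding and of the secretory path were lower about as often as all genes, and less often higher. The share lower was 22.4% for heat shock genes and 29.2% for endoplasmic reticulum genes. Both shares were above those of all genes in their deciles, 14.98% and 12.81% respectively. For heat shock and DnaJ proteins 7 of 67 were higher and 15 lower, a list whose median (-0.18) turned positive when the arrays were scaled to their medians or not at all, and the inducible Hspa1b (8.42-fold) and Hspa1a (4.29-fold) were lower. Among genes of the endoplasmic reticulum 2 of 48 were higher and 14 lower (median log2 difference -0.31), including Derl3 of ER-associated degradation, 50.4-fold lower, with Pdia4, a disulphide isomerase (4.62-fold), the translocon subunit Sec61a1 (4.61-fold, other probes at -1.38 to 0.00) and Xbp1, which drives secretory expansion (3.0-fold). Of the targets of ATF4, the factor of the integrated stress response, 2 of 26 were higher and 10 lower (median log2 difference -0.67). Gdf15, a stress cytokine, stood at 1.34 in the 8-factor culture, 1.70 in the 7-factor culture and 5.97 in the primary cells, 24.8-fold lower, and the cystine carrier Slc7a11 was 11.3-fold lower, while Atf4 itself was at -0.26 on the log2 scale.

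The proteasome was even, and its immune form was not. Of 39 proteasome subunits 3 were higher and 4 lower (median log2 difference 0.04), and the lower ones were the 3 catalytic subunits of the immunoproteasome with the testis subunit Psma8 (3.20-fold). Psmb8 had a level of 0.04 in the 8-factor culture, -0.93 in the 7-factor culture and 2.99 in the primary cells, 7.73-fold lower, and Psmb9 was 5.88-fold lower and Psmb10 2.15-fold lower. The peptide pump of the endoplasmic reticulum was lower too: Tap2 was 10.3-fold lower, Tapbp, which tethers class I molecules to it, 5.92-fold lower, and Tap1 2.07-fold lower. In all, of 13 genes of this pathway 9 were lower and none higher (median log2 difference -1.74), B2m lying at -0.88. Among MHC class I genes 0 of 16 were higher and 14 lower (median log2 difference -2.79). H2-K1, a classical class I gene, was 6.23-fold lower and H2-T23, a ligand of natural killer receptors, 12.7-fold lower, though near-identical class I genes may share probes. Leukocyte markers differed in the same direction, and their part in these lists was not tested.

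Tap1 and Psmb9 lie head to head, and their RefSeq windows overlap by 275 bases at chr17:34187306-34187580 (GRCm38.p6), which is therefore shown once, on the + strand, as the window of a pair of genes that were both lower.
Tap1 and Psmb9 shared window: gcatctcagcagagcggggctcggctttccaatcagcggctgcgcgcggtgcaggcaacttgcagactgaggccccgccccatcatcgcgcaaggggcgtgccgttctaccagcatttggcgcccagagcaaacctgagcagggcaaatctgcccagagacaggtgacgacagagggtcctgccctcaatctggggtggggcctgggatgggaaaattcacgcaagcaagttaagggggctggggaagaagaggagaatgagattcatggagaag

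Energy genes differed little, apart from those of glycolysis. Of the glycolytic genes 3 of 25 were higher and 8 lower (median log2 difference -0.80). Hk3, a hexokinase of blood cells, was 308-fold lower, and of the widely used enzymes Aldoa was 2.66-fold lower (0.85 on the log2 scale under quantile normalization) and Ldha 2.74-fold lower, the latter with another probe at -0.11. The muscle and neuronal enolases Eno3 (4.76-fold) and Eno2 (2.58-fold) were higher. Pygl, liver glycogen phosphorylase, had a level of 0.02 in the 8-factor culture, 0.21 in the 7-factor culture and 5.75 in the primary cells, 53.3-fold lower. Citric acid cycle genes gave 3 higher and 5 lower of 25, complex I 2 and 2 of 36, and mitochondrial fatty acid oxidation 4 and 6 of 34. Cox6b2, the testis form of a cytochrome oxidase subunit, was 11.2-fold higher.

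Genes of lipid synthesis were lower from the early to the late steps. In cholesterol synthesis 1 of 25 were higher and 13 lower (median log2 difference -1.16, -1.42 for the 7-factor culture), from the first steps, Hmgcs1 (2.46-fold) and Mvd (4.03-fold), through squalene synthase Fdft1 (4.23-fold) to lanosterol synthase Lss (4.69-fold). Acat2, which makes the first precursor, was 20.7-fold lower. The regulator Srebf2 lay at -0.09 on the log2 scale by its brightest probe and at -1.09 by another. Second probes pointed the same way for 8 of 8 called members of the list. In fatty acid and triglyceride synthesis 3 of 32 were higher and 14 lower, including the elongase Elovl7 (7.93-fold) and the desaturase Scd1 (2.60-fold). Of 28 sphingolipid genes 13 were lower and none higher (median log2 difference -0.99), among them the ceramide synthase Cers2 (3.48-fold). Apolipoproteins of macrophages and liver were far lower, Apoe by 47.1-fold and Apoc1 by 175-fold, whereas Apod was at least 58.5-fold higher and Rbp4, the retinol carrier, 42-fold higher.

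Genes that make prostaglandins and leukotrienes were more often lower than genes overall. Of 26 genes 14 were lower and 1 higher (median log2 difference -1.61). The leukotriene enzyme Alox5 was 35.6-fold lower, its partner Alox5ap 49.4-fold lower and thromboxane synthase Tbxas1 73.2-fold lower, all of which leukocytes also express. Ptges, which makes prostaglandin E, had a level of -0.36 in the 8-factor culture, -0.07 in the 7-factor culture and 3.42 in the primary cells, 13.8-fold lower, and Ptgs1 was 5.17-fold lower. The 1 higher gene, Hpgd, inactivates prostaglandins: its level was -0.32 in the 8-factor culture, 0.86 in the 7-factor culture and -4.21 in the primary cells, 14.8-fold higher. Receptors for these lipids, Ptger3 and Ptgfr, were higher, by at least 13.9-fold and at least 13.6-fold, and Ptger2 was 9.86-fold lower.

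Genes that handle peroxide and electrophiles were lower in the 8-factor culture. Follicular cells make hydrogen peroxide to iodinate thyroglobulin, and carry matching antioxidant systems. Of 34 NRF2 targets and antioxidant enzymes 14 were lower and none higher (median log2 difference -0.79). Gpx2, an epithelial glutathione peroxidase, had a level of 1.69 in the 8-factor culture, 2.87 in the 7-factor culture and 6.0 in the primary cells, 19.8-fold lower. Osgin1 was 31.3-fold lower, the glutathione-synthesis subunit Gclm 5.81-fold lower, sulfiredoxin Srxn1 4.65-fold lower and Nqo1, a quinone reductase, 3.29-fold lower. Among glutathione S-transferases 3 of 23 were higher and 12 lower (median log2 difference -1.21), including Gsta3 (25.6-fold) and Gstm1 (4.64-fold), although the omega-class Gsto2 (8.50-fold) and the microsomal Mgst2 (6.88-fold) were higher. Aldehyde dehydrogenases gave 2 higher and 10 lower of 20, and the retinal dehydrogenases parted: Aldh1a1 was 10.6-fold higher, Aldh1a2 18.4-fold lower and Aldh1a3 5.72-fold lower. Lrat, which stores retinol as ester, was 100.0-fold lower, and Rarb, a receptor and target of retinoic acid, 6.25-fold higher.

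Metal handling pointed the same way. In iron and heme metabolism 5 of 36 were higher and 17 lower, with the ferritin chain Fth1 (7.71-fold), heme oxygenase Hmox1 (5.27-fold), transferrin Trf (11-fold) and the siderophore binder Lcn2 (424-fold) all lower. Metallothioneins, small cysteine-rich proteins that bind zinc and copper, were lower in 3 of 4: Mt2 stood at 5.83 in the 8-factor culture, 6.59 in the 7-factor culture and 8.79 in the primary cells, 7.78-fold lower, and Mt1 at 5.02 in the 8-factor culture, 6.05 in the 7-factor culture and 7.17 in the primary cells, 4.45-fold lower. Mt3 was 5.34-fold lower and Mt4 lay at 0.63. Their transcription is driven by metal response elements (MRE), bound by MTF1. The core TGCNCNC, read on either strand, occurred at least 2 times in the promoter windows of all 4 genes, against 5344 of 27025 promoters of all genes, and 50.4% of those held at least 1. The windows of the 2 brightest are shown with the MRE core in capitals, Mt1 at chr8:94178839-94179138 and Mt2 at chr8:94172368-94172667, both on the + strand of GRCm38.p6, 3 and 6 matches respectively.
Mt1: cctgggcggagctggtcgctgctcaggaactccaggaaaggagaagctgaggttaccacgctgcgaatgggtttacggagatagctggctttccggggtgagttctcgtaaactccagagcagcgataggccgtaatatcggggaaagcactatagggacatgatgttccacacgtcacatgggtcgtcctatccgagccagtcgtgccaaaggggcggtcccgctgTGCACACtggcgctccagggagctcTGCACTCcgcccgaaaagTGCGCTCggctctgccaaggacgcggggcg
Mt2: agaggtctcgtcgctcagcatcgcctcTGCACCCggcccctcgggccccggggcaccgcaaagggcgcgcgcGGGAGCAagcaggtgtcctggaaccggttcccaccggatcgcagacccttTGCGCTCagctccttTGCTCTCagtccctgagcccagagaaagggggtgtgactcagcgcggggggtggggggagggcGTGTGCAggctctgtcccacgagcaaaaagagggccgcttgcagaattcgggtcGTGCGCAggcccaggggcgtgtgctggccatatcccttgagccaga

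Many genes of the lysosome, where thyroglobulin is digested, were lower. Of 51 cathepsins and lysosomal hydrolases 28 were lower and none higher (median log2 difference -1.18, -1.0 for the 7-factor culture). Ctsd, Ctsb and Ctsl, proteases that cleave thyroglobulin, were 5.82-fold, 4.91-fold and 3.94-fold lower. Ctsb, for example, had a level of 4.74 in the 8-factor culture, 5.39 in the 7-factor culture and 7.03 in the primary cells. Ctss, a cathepsin of antigen-presenting cells, was 915-fold lower. Hydrolases of other substrates were lower too, such as Hexa (4.12-fold), Galns (11.2-fold) and the sphingolipid activator Psap (4.24-fold). The vacuolar ATPase, which acidifies the compartment, gave 1 higher and 8 lower of 23, the osteoclast and macrophage subunit Atp6v0d2 at 7.74-fold lower and the kidney subunit Atp6v0a4 at 6.37-fold higher. Among autophagy genes 2 of 37 were higher and 10 lower, with the receptors Optn (15.9-fold) and Sqstm1 (5.87-fold) lower. The share lower (27%) was near that of all genes, and above that of all genes in their decile (18.8%). Leukocytes are rich in lysosomes, and the part of leukocyte markers, which summed to 0.568 against 103, was not tested.

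Most genes of tight junctions were lower. For claudins, occludin and junctional adhesion molecules 5 of 33 were higher and 20 lower (median log2 difference -1.75). Cldn7 had a level of -0.06 in the 8-factor culture, -0.54 in the 7-factor culture and 5.15 in the primary cells, 37.1-fold lower, and Cldn8, a sealing claudin, of -6.63 in the 8-factor culture, -5.41 in the 7-factor culture and 0.50 in the primary cells, 141-fold lower. Cldn4 was 41.8-fold lower, and Marveld2, of the tricellular junction, 142-fold lower (another probe at -4.00 on the log2 scale). The higher members included Jam3 (20.3-fold), Cldn11, of myelin and Sertoli cells (17.4-fold), and the pore-forming Cldn10 (4.41-fold).

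Desmosome and gap junction genes were mostly lower. In desmosomes 1 of 15 were higher and 9 lower, with plakophilin Pkp3 48.5-fold lower and desmocollin Dsc2 35.7-fold lower. Dst, the dystonin linker, was 7.83-fold higher (other probes at 0.38 to 2.89). Dsp lay at -0.21 by its brightest probe, but its other probes gave -3.35 to -0.93. Connexins gave 1 higher and 8 lower of 14: Gjb1, of thyroid and liver, was 24.7-fold lower, while Gjc1 was 7.25-fold higher and the widely used Gja1 lay at 0.72. Among cadherins 6 of 19 were higher and 8 lower. The thyroid and kidney Cdh16 was 55.1-fold lower and epithelial Cdh1 6.98-fold lower, whereas the mesenchymal Cdh11 and Cdh2 were 18.6-fold and at least 8.70-fold higher, other probes of Cdh11 giving 0.31 to 2.82. Of 39 keratins 15 (38.5%) were lower and 1 higher, a smaller share lower than among all genes of their dim decile (57.4%), and the median was 0.00. However, 14 of the 39 had no direction and were counted at 0. The 22 measured on both arrays had a median of -1.85. A gene enters that subset only from -5.15 upwards in the primary cells but from -7.91 upwards in the 8-factor culture. No like median was taken over all genes of the decile, so this median cannot be read against it. Named members were Krt7 at 49.1-fold lower and the basal pair Krt5 and Krt14 at 20.4-fold and 7.10-fold lower.

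Genes of the basement membrane and its receptors were more often lower than higher. Among laminins and their linkers 6 of 25 were higher and 12 lower. Lamb3 and Lama3, laminin chains that anchor epithelia, were 79.9-fold and 4.51-fold lower, while Lama4 and Lama2, chains found around mesenchymal cells, were 16.2-fold and 3.41-fold higher. Among integrins 5 of 28 were higher and 14 lower. The epithelial Itgb6 was 106-fold lower and Itgb4, of the hemidesmosome, 3.03-fold lower, whereas Itga8, Itga9 and Itga11, known from mesenchymal cells, were 27.6-fold, 10.2-fold and 3.48-fold higher. The leukocyte integrins Itgam and Itgb2 were 338-fold and 90.9-fold lower.

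Matrix genes were not uniformly higher. Of 43 collagens 15 were higher and 12 lower (median log2 difference 0.15, negative under the normexp background correction). Col6a1, Col6a2 and Col6a3, the classical chains of collagen VI, were higher, by 15.4-fold, 5.48-fold and 13.3-fold, with the fibril-associated Col14a1 (32.7-fold) and Col11a1 (25.9-fold). Col1a1, the main fibrillar chain, lay at 0.47 on the log2 scale by its brightest probe, but its other probes gave 1.40 to 1.83. Col1a2 lay at 0.20. Col9a1 (142-fold), Col17a1 (15-fold) and Col18a1 (14.2-fold) were lower. Among elastic fibre genes 10 of 26 were higher and 4 lower (median log2 difference 0.56): Fbn2, the fetal fibrillin, had a level of 0.77 in the 8-factor culture, 0.75 in the 7-factor culture and -4.86 in the primary cells, 49.6-fold higher, and Mfap2, Fbln1 and Efemp1 were 23.1-fold, 21.5-fold and 16.1-fold higher. Among proteoglycans 16 of 38 were higher and 14 lower (median log2 difference 0.47), and the higher ones included Ogn (41.8-fold), Prelp (17.6-fold), Lum (8.06-fold) and Aspn (at least 30.2-fold), small leucine-rich members known to space collagen fibrils. Among metalloproteinases 2 of 23 were higher and 11 lower, with Mmp9, also a gene of leukocytes, 725-fold lower.

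Protocadherins and matricellular proteins were more often higher than lower. Of 42 protocadherins 19 were higher and 8 lower (median log2 difference 0.61), with Pcdh10 at least 50.7-fold higher, the atypical cadherin Fat4 at least 12.9-fold higher and several of the beta cluster, such as Pcdhb21 (13.3-fold). However, 10 of the 42 were bounds and 9 had no direction, and second probes pointed the same way for only 1 of 4 called protocadherins. For matricellular proteins 16 of 38 were higher and 8 lower: periostin, Postn, had a level of 4.94 in the 8-factor culture, 5.06 in the 7-factor culture and 1.96 in the primary cells, 7.87-fold higher, and Thbs2 and Ccn5 were 9.93-fold and 32.6-fold higher. Osteopontin, Spp1, which macrophages and epithelia secrete, was 6.37-fold lower, and Ccn2, a YAP target, 6.01-fold lower.

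**Figure D3:**
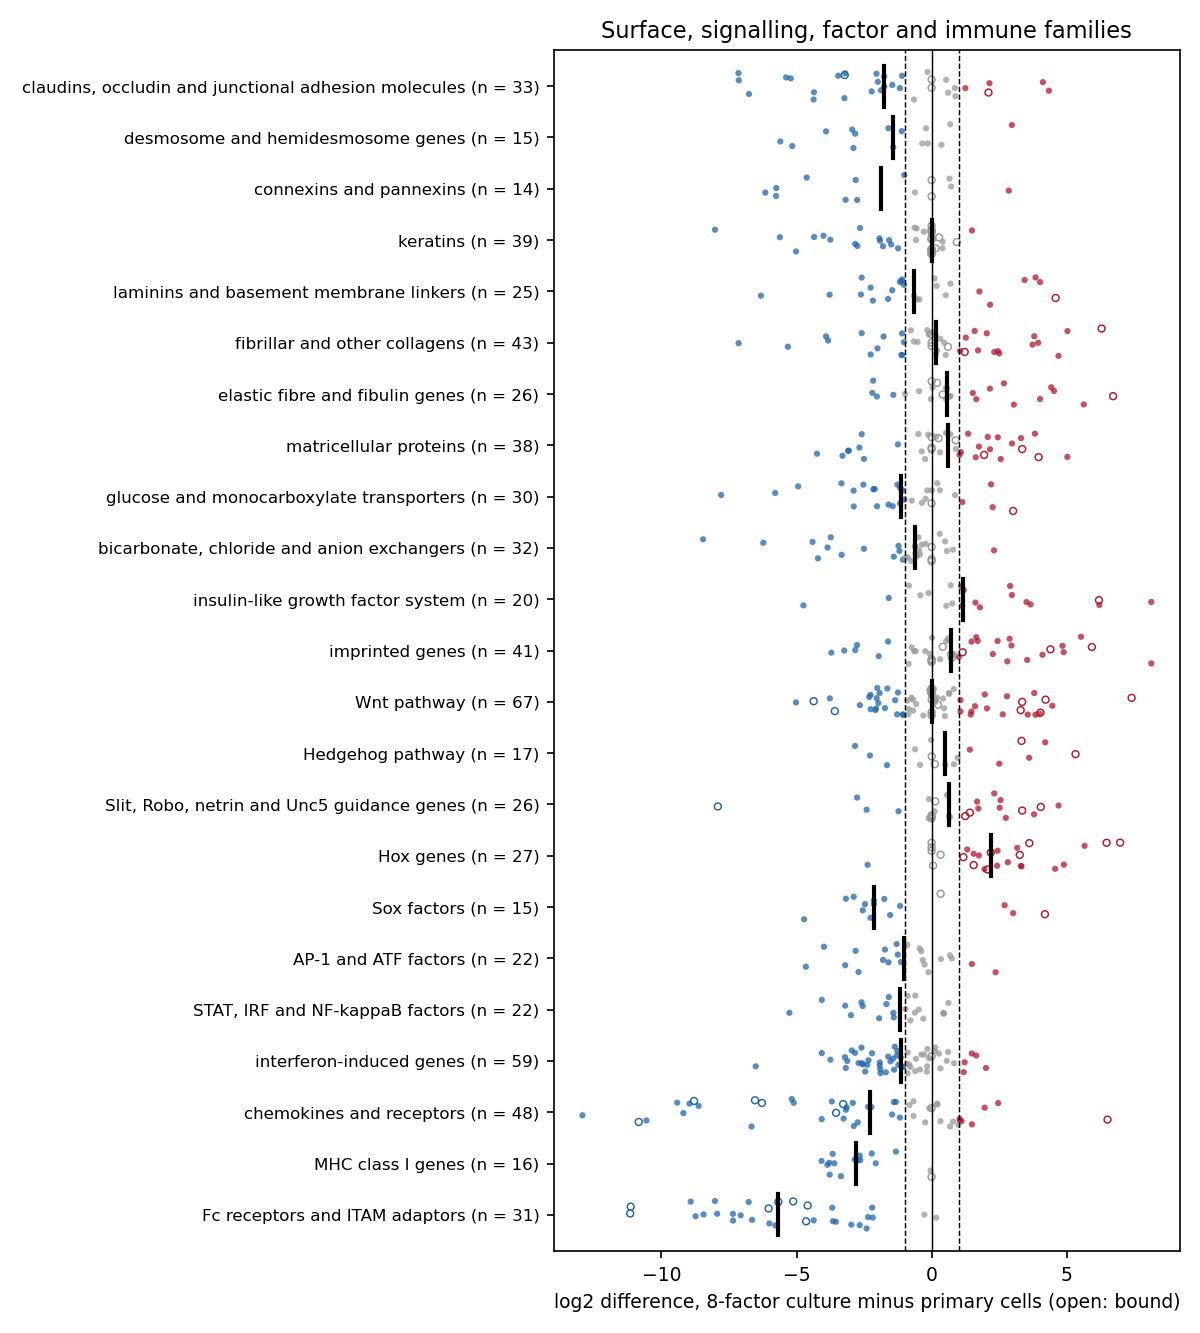
Each point is the log2 difference, 8-factor culture minus primary cells, of 1 gene of the junction, matrix, transport, signalling, transcription factor and immune families named in the text, open symbols are bounds, bars mark the family median, and dashed lines mark 2-fold. The Hox genes sit highest, with a median of 2.19, and the Fc receptor list lowest, at -5.67, at the settings used here.

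Several named genes of epithelial ion transport were lower, though their lists as a whole were mixed. Sodium channels, ENaC among them, gave 4 higher and 8 lower of 18, and P-type ion pumps 5 higher and 5 lower of 31. Of 49 kallikreins and transmembrane serine proteases 4 were higher and 25 lower. That share lower, 51.0%, was below that of all genes in their dim decile (57.4%). The apical sodium channel ENaC was lower in 2 of its subunits: Scnn1a stood at -0.25 in the 8-factor culture, -0.65 in the 7-factor culture and 3.13 in the primary cells, 10.4-fold lower, and Scnn1b at -3.62 in the 8-factor culture, -3.08 in the 7-factor culture and 2.12 in the primary cells, 53.5-fold lower, while Scnn1g lay at -0.13. Membrane serine proteases known to activate this channel were lower as well, Prss8 by 11.3-fold and Tmprss2 and St14 by 95.5-fold and 50.4-fold. Hepsin, Hpn, was 295-fold lower. The sodium pump's beta subunit Atp1b1 had a level of 0.00 in the 8-factor culture, 1.19 in the 7-factor culture and 4.82 in the primary cells, 28.1-fold lower. Of its FXYD regulators Fxyd4 was 312-fold lower and Fxyd6 13.2-fold higher.

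Potassium channels were mixed and anion exchangers leaned lower. Among potassium channels 14 of 68 were higher and 23 lower (median log2 difference -0.16), and 33.8% lower is less than among all genes of their dim decile (57.4%). However, 17 of the 68 had no direction and were counted at 0. The 41 measured on both arrays had a median of -1.32, which has the same limit as that of the keratins and cannot be read against the decile. Kcnj10 and Kcnj16, which form a basolateral potassium channel in epithelia, were 206-fold and 11.47-fold lower, and Kcnk1 was 15.5-fold lower. Among anion exchangers 1 of 32 were higher and 12 lower (median log2 difference -0.61): Slc4a5, a sodium bicarbonate cotransporter, had a level of -4.51 in the 8-factor culture, -4.20 in the 7-factor culture and 3.95 in the primary cells, 352-fold lower, and Slc26a7, which takes part in thyroid anion transport, was 14.4-fold lower. Cftr was 14.5-fold lower. Of the aquaporins Aqp5 and Aqp1 were 9.25-fold and 6.98-fold lower. Among carbonic anhydrases 2 of 14 were higher and 7 lower (median log2 difference -1.16), the cytosolic Car2 at 11.3-fold lower and the membrane-bound Car14 at 60.4-fold higher. Clca1, a secreted regulator of chloride currents found in goblet cells, had the highest measured difference of all genes compared: it stood at 6.05 in the 8-factor culture, 6.29 in the 7-factor culture and -4.03 in the primary cells, 1080-fold higher.

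Carriers of nutrients differed by class. For glucose and monocarboxylate transporters 4 of 30 were higher and 17 lower (median log2 difference -1.12). Slc16a11 had a level of -1.33 in the 8-factor culture, -3.86 in the 7-factor culture and 6.46 in the primary cells, 221-fold lower. The lactate carrier Slc16a1 was 4.79-fold higher. Among amino acid transporters 10 of 51 were higher and 21 lower: Slc7a8, which moves neutral amino acids, was 34.3-fold lower, while the glutamine carriers Slc38a5 and Slc38a4 were higher, by at least 86.4-fold and 46.2-fold. ABC transporters were mixed, 13 higher and 7 lower of 41, with the stem cell efflux pump Abcg2 8.45-fold higher. Of the small GTPases that steer vesicles, Rab25, of apical recycling, was 46.9-fold lower and its motor partner Myo5b 33.7-fold lower, while Rab27a and Rab3b, of regulated secretion, were 9.14-fold and 59-fold higher.

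**Figure D4:**
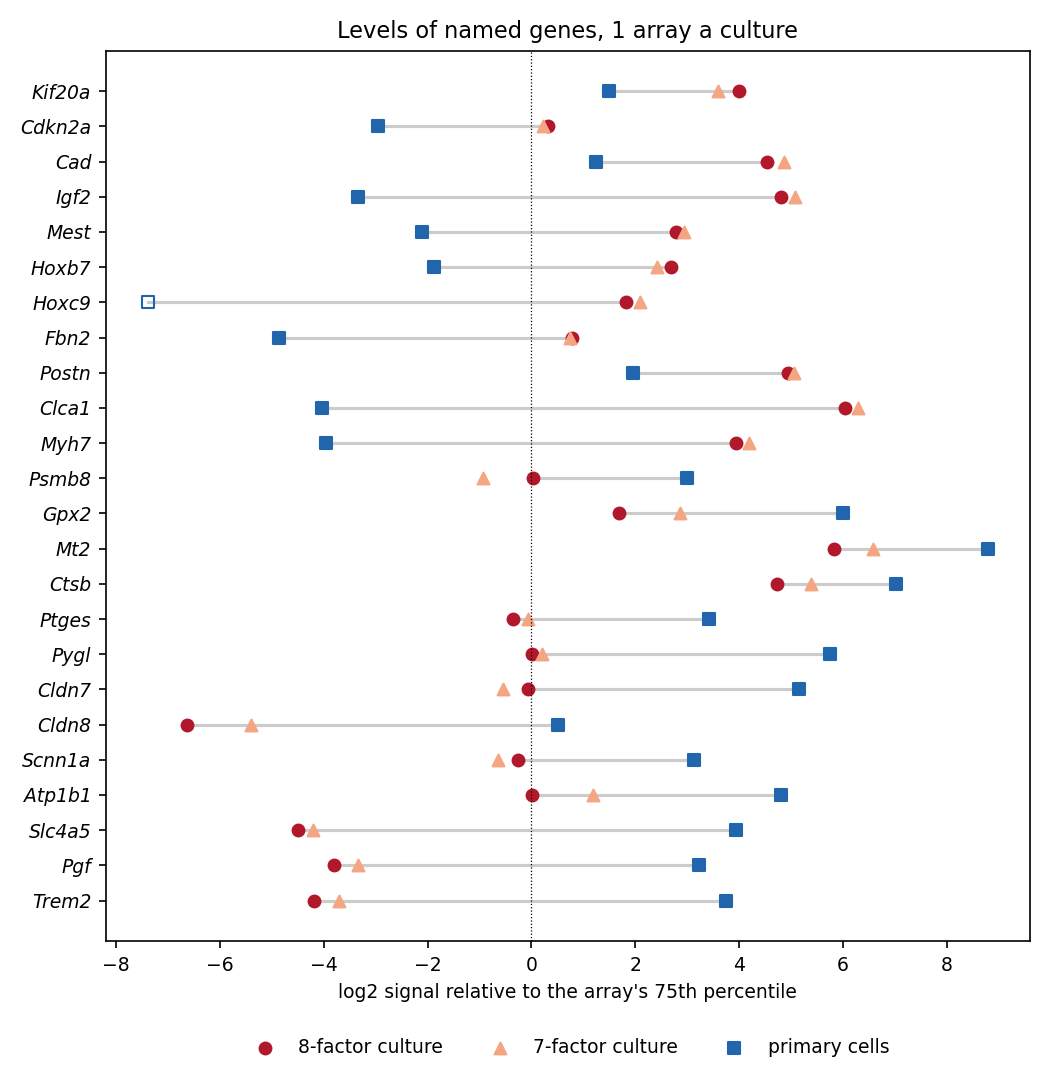
Log2 levels of selected genes on the 3 arrays (8-factor culture, 7-factor culture and primary cells), where 0 is each array's 75th percentile and open symbols mark values not well above background. Igf2 and Hoxb7 lie far above the primary cells in both induced cultures, and Atp1b1 and Cldn7 far below them.

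The insulin-like growth factor system was higher at the ligand and around it. Of 20 genes 12 were higher and 2 lower (median log2 difference 1.16, 1.55 for the 7-factor culture). Igf2, the fetal growth factor, had a level of 4.80 in the 8-factor culture, 5.07 in the 7-factor culture and -3.33 in the primary cells, 281-fold higher, and another probe differed by 8.14. The RNA-binding proteins Igf2bp1 and Igf2bp3, which are oncofetal regulators of Igf2 mRNA, were 73.9-fold and at least 73.2-fold higher. Irs1, the docking protein of the receptor, was 12.7-fold higher, and Pappa, the protease that frees the ligand from Igfbp4, 11.4-fold higher, with Igfbp4 itself 7.85-fold higher. The receptors Igf1r and Igf2r lay at 0.71 and 0.55. Igfals, of circulating complexes, was 26.8-fold lower.

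Igf2 is imprinted, expressed from the paternal allele, and other imprinted genes were higher as well. Among 41 imprinted genes 18 were higher and 6 lower (median log2 difference 0.72). Mest had a level of 2.78 in the 8-factor culture, 2.94 in the 7-factor culture and -2.11 in the primary cells, 29.6-fold higher, and Dlk1, a fetal regulator of mesenchyme, of 0.78 in the 8-factor culture, 1.25 in the 7-factor culture and -5.43 in the primary cells (not well above background), at least 61.1-fold higher. Peg3, a zinc finger gene, was at least 21.1-fold higher, Plagl1, another, 6.98-fold higher, the long RNA Kcnq1ot1 28.7-fold higher and Peg12 17.2-fold higher. Phlda2, a brake on placental growth, was 13.1-fold lower and Gatm, of creatine synthesis, 9.41-fold lower.

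Other growth factor systems were split among their ligands and receptors. Among PDGF and VEGF genes, the mesenchymal receptor Pdgfra was 4.58-fold higher, while its ligands Pdgfa and Pdgfb were 3.56-fold and 19.8-fold lower. The lymphatic ligands Vegfd and Vegfc were 47-fold and 4.19-fold higher, and placental growth factor Pgf 132-fold lower, with a level of -3.80 in the 8-factor culture, -3.34 in the 7-factor culture and 3.24 in the primary cells. Of the EGF family the ligands Areg and Hbegf were 10.3-fold and 5.67-fold lower, and Egfr was 2.67-fold higher, other probes of Egfr giving -0.46 to 1.83.

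Families of patterning signals were split too. In the Wnt list 19 of 67 were higher and 21 lower: the secreted antagonists Sfrp4, Sfrp1 and Wif1 were at least 169-fold, 22.1-fold and at least 18.6-fold higher, Wnt2 was 13.9-fold higher, and the epithelial ligands Wnt7b and Wnt7a were 32.5-fold and at least 20.6-fold lower. Hedgehog genes gave 6 higher and 3 lower of 17. Shh had a level of 0.18 in the 8-factor culture, -0.45 in the 7-factor culture and -7.23 in the primary cells (not well above background), at least 40.2-fold higher, while the effectors Gli3 and Gli2 were 18.4-fold and 12.2-fold higher and the decoy Hhip was at least 10.0-fold higher. Ptch1 and Gli1, targets of the pathway, were not well above background in the primary cells, and their bounds were below 2-fold. Of the guidance genes 12 of 26 were higher and 4 lower (median log2 difference 0.66), including the ligand Slit2 (13.8-fold) and the receptor Robo1 (5.86-fold). Robo4, an endothelial member, was at least 241-fold lower. In the renin-angiotensin system Agt, the precursor, and Agtr2 were 38.7-fold and 31-fold higher, and Ace was 3.80-fold lower.

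Nuclear receptors and FGF ligands also divided. Of the thyroid hormone receptors Thra was 2.70-fold higher, another probe giving 0.46, and Thrb 4.04-fold lower. Esrrg, an orphan receptor of oxidative cells, was 15.6-fold lower, the vitamin D receptor Vdr 3.87-fold lower, and Pparg, the adipocyte regulator, 3.48-fold higher, while the adipocyte markers summed to 4.93 against 2.92. The mesenchymal ligands Fgf10 and Fgf7, which signal to epithelium, were higher, by at least 5.34-fold and 5.12-fold, whereas Kl, the coreceptor of hormonal FGFs, was at least 24.3-fold lower. Among death ligands and receptors, Tnfrsf19 was 35.7-fold higher and Tnfrsf11b, a decoy that limits osteoclasts, 3.72-fold higher, while Tnf was at least 135-fold lower and Cd40 30.9-fold lower.

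The Hox genes had the highest median of all families compared, cell type markers left aside, but not under the normexp background correction, where it was 0.60 against 1.23 for the kinetochore list. Of 27 compared, 21 were higher and 1 lower (median log2 difference 2.19, 2.43 for the 7-factor culture), and 10 of the differences were bounds. Hoxb7 had a level of 2.70 in the 8-factor culture, 2.43 in the 7-factor culture and -1.87 in the primary cells, 23.8-fold higher, and Hoxc9 of 1.83 in the 8-factor culture, 2.09 in the 7-factor culture and -7.39 in the primary cells (not well above background), at least 126-fold higher. The lower one, Hoxa3, which acts in the pharyngeal region where the thyroid forms, was 5.17-fold lower by its brightest probe but at 0.64 on the log2 scale when all its probes were averaged. In the list of Pbx, Meis and Pitx factors 12 of 25 were higher and 3 lower (median log2 difference 0.79), with Meis2 6.93-fold and Pitx1 56-fold higher. T-box factors gave 6 higher and 2 lower of 11, bHLH factors 9 and 17 of 48, and Forkhead factors 7 and 13 of 34, and the higher ones included Tbx15 (37-fold), Twist2 (10.0-fold) and Foxd1 (at least 93.9-fold). Meox2 was 19.6-fold higher and Meox1 9.04-fold lower, and among Iroquois factors Irx1 was 23.1-fold higher and Irx3 6.61-fold lower.

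Several regulators of epithelial identity were lower, and several repressors of epithelial genes higher. Grhl2 and Esrp1, which hold epithelial junctions and splicing, were 23.8-fold and 21.6-fold lower, and Ovol1 8.81-fold lower. Snai2, Snai1 and Zeb1, which repress epithelial genes, were 6.10-fold, 5.09-fold and 4.86-fold higher, while Zeb2 lay at 0.38. Of 15 Sox factors 11 were lower, Sox9 by 2.25-fold, and Sox6 and Sox11 were at least 18.3-fold and 6.51-fold higher, other probes of Sox11 giving -1.40 to 3.34. Foxa2 and Gata3 were 5.44-fold and 25.5-fold lower, whereas Gata6 was 9.87-fold higher. Of the AP-1 and ATF list 2 of 22 were higher and 11 lower (median log2 difference -1.02), Fosl1 and Jun at 9.18-fold and 3.31-fold lower but Fos at 2.81-fold higher. Among STAT, IRF and NF-kappaB factors 0 of 22 were higher and 11 lower (median log2 difference -1.18), with Nfkb2 and its inhibitor Nfkbia 5.86-fold and 3.18-fold lower, and Irf7 16.8-fold lower.

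The lowest family medians, cell type markers left aside, were those of immune genes, though not every immune list lay below all others. Metallothioneins (-2.28) and Sox factors (-2.14), for example, lay below the interleukins. The median of the Fc receptor list moved to -1.49 with the floor raised to 10% of the 75th percentile, where MHC class I genes were at -2.65. Of 31 Fc receptors and ITAM adaptors 29 were lower and none higher (median log2 difference -5.67). Trem2, a lipid receptor of macrophages, had a level of -4.19 in the 8-factor culture, -3.72 in the 7-factor culture and 3.74 in the primary cells, 245-fold lower, and Fcgr3 of -6.29 in the 8-factor culture, -6.61 in the 7-factor culture and 2.44 in the primary cells, 427-fold lower. For chemokines and their receptors 7 of 48 were higher and 29 lower (median log2 difference -2.29), with the platelet factor Pf4 7770-fold lower and Ccl3 394-fold lower, and for interleukins and their receptors 7 of 60 were higher and 42 lower (median log2 difference -1.91). Toll-like and NOD-like receptors gave 25 lower of 34 and none higher, and the subunits of the phagocyte oxidase Ncf4, Ncf1 and Cybb were 909.6-fold, 178-fold and 96.2-fold lower. The leukocyte markers differed in the same direction, 0.568 against 103 in summed level, C1qa being above background in the primary cells and not in the 8-factor culture, and their part was not tested.

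A smaller set of immune genes was higher in the 8-factor culture. Cxcl13, which draws B cells to lymphoid tissue, had a level of 1.45 in the 8-factor culture, 1.12 in the 7-factor culture and -5.06 in the primary cells (not well above background), at least 91.3-fold higher, and Cxcl12, a product of stroma, was 3.90-fold higher, with its scavenger Ackr3 5.52-fold higher. In complement, the first component chains made by macrophages were lower, C1qc by 2620-fold, while the regulators Cd55 and Serping1 were 17-fold and 7.67-fold higher and the protease C1ra 5.88-fold higher. Of 59 interferon-induced genes 32 were lower and 5 higher (median log2 difference -1.14), Oas1a at 8.69-fold lower and Isg20 at 3.14-fold higher. Fgb, the fibrinogen chain made by liver, stood at 3.12 in the 8-factor culture, 2.33 in the 7-factor culture and -5.34 in the primary cells (not well above background), at least 308-fold higher, while its partner Fgg was 3.0-fold lower. The cardiac and slow muscle myosin Myh7 had a level of 3.93 in the 8-factor culture, 4.19 in the 7-factor culture and -3.96 in the primary cells, 238-fold higher, with its neighbour Myh6 15.2-fold higher and Myom2 of the M band 48-fold higher. Most other called sarcomere genes were lower, Mybpc2 by 197-fold, and muscle markers summed to 0.939 against 2.76.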

How the data were processed

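RNA was labelled with Cy3 and hybridised to one-colour Agilent mouse arrays, per the labels' protocols. The deposited scanner files give an intensity for each spot, the background-subtracted processed signal of Feature Extraction 11.5.1.1 per the file headers (10.5 per the submitters' processing notes), and the deposited value table equals it to within 2.5e-05, unscaled. No depth applies to arrays, and their number (1 a group) limits the precision. Here control spots were left out, 10 copies of a probe were averaged, and log2 intensity was taken minus each array's 75th percentile, as the series' design text names. Of a gene's probes, that with the highest mean signal on the 3 arrays stood for it, and 49 genes were left out whose chosen probe was well above background on 1 array only while another of their probes was so on the other array. Probes were named by matching the transcript accession that the scanner files give for each to RefSeq (GRCm38.p6): 27815 of 41171 probes matched 1 gene, none matched several, and the other 13356 stayed unnamed. The members and all 163 gene lists were chosen with earlier results of these data known, and 2 symbols matched by spelling alone (Hspg2 and Clcf1) were removed. Named by rule in each list were up to 6 members past 2-fold in each direction, all members of lists of 16 or fewer compared, and overall the 15 largest measured differences and 10 largest bounds each way. Outside it, and chosen after their values were seen, were Aldoa, Atf4, Bmi1, Igf1r, Igf2r, Ptch1, Rnf2, Scnn1g, Srebf2, Bub1, Ccl3, Col6a2, Ctsb, Ctsd, Ctsl, Cybb, Ect2, Fgg, Gstm1, H2ax, Hexa, Hmgcs1, Hmox1, Jun, Krt14, Nfkbia, Nqo1, Pdgfa, Peg12, Plagl1, Psap, Ptger2, Ptgs1, Scd1, Srxn1, Thrb, Trem2, Vdr, Vegfc, Wnt2 and Xbp1. Some genes that the rule names are not reported here. No test was made. A comparison script was tested on simulated data. Alternatives were 4 other scalings, normexp (limma 3.58.1 in R 4.3.3, offset 50, on the median rather than the planned mean signal, which the files do not hold), 2 other filters and 2 other probe rules. Python 3.11.15 with numpy 2.4.6, pandas 2.3.3 and matplotlib 3.10.9 was used.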

Additional observations from a re-analysis of the deposited data

Results flagged for a closer look

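A signal was present outside the genes compared. Of the 8661 probes without a gene name here that either array detected well above its background, 1955 were at least 2-fold higher in the 8-factor culture and 1838 at least 2-fold lower, with 186 and 263 at 10-fold. They enter no count of genes, and no control sample of uninfected fibroblasts was analysed here. The groups hold 1 array each, so outlying samples could not be looked for.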

How the results depend on the processing

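Under 9 alternatives the numbers of higher and lower genes stayed within 1.5 times those reported (2874 and 4447), except without scaling between arrays, from the deposited value table, where 11715 were higher and 978 lower, and with the floor raised to 10% of the 75th percentile, where 2780 were lower, since that setting pulls dim values together. Scaling to the median of all probes gave 3680 and 3894 and moved the median of measured genes by 0.24, no scaling by 2.33, and the other scalings by less than 0.1. The share of calls that were higher was 39.3%, and 92.3% without scaling. It was 48.6% with scaling to the median, 42.5% with quantile normalization, 37.2% with the 75th percentile over detected probes, and 31.4% after normexp (2239 and 4881). Relative to the median of all genes, 96 of the 142 lists with a median other than 0 kept its sign in every alternative. Of the 44 with a median of 1 or more in size, 36 did, 8 came to 0 in some alternative and none turned sign. The Hox median (2.19) ranged down to 0.60, after normexp, and the Fc receptor median (-5.67) up to -1.49, with the raised floor. Of the 340 genes named at 2-fold or more, 39 fell under 2-fold in at least 1 alternative and 3 changed sign. Under quantile normalization these were Aldoa (0.85) and Rplp0 (0.12), and with the mean of all probes Hoxa3 (0.64). The cause was not tested. Dim genes are limited by signal over background: a fold is a bound only where 1 array was not well above background. Folds with a level just above the lowest such signal (-7.91 in the 8-factor culture) are given as measured. Among them were Marveld2, Itgam and Pf4, at -7.26, -7.11 and -6.74 in that culture. No paired analysis was possible because each group is 1 array.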

Other observations

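Further families held differences not described above. Of the mucin-type O-glycosylation transferases, which start and extend sugar chains on secreted proteins, 9 of 27 were higher and 7 lower (median log2 difference 0.85): Galnt17 was at least 19.1-fold higher and Galnt18 9.02-fold higher, while Galnt6 and Galnt3, of epithelia, were 18.5-fold lower and 8.78-fold lower. Among Polycomb, DNA methylation and Trithorax genes 13 of 52 were higher and 9 lower (median log2 difference 0.49), with the de novo methyltransferase Dnmt3b 4.20-fold higher, the Polycomb subunits Bmi1 and Rnf2 3.05-fold and 2.80-fold higher, and Cbx7, which reads the Polycomb mark, 3.59-fold lower.

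Calcium-binding proteins and metal carriers differed by member. In the annexin and S100 list 5 of 26 were higher and 12 lower (median log2 difference -0.71). S100a4, also counted among the fibroblast markers, had a level of 5.55 in the 8-factor culture, 5.14 in the 7-factor culture and 2.18 in the primary cells, 10.3-fold higher, and Anxa8 was 9.0-fold higher, while Anxa1, a mediator of the glucocorticoid response, and the epithelial S100a14 were 4.68-fold and 5.63-fold lower. Of the copper pumps Atp7b, which excretes copper in liver, was 18.5-fold lower, and its relative Atp7a was 2.01-fold higher. Among semaphorins 8 of 31 were higher and 11 lower: the secreted Sema3d was 10.6-fold higher, and Sema4a, of immune and epithelial cells, was 29.8-fold lower.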
